A study of Homo sapiens with 18 samples.

Results

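Keratinocytes that carried only the control adenovirus were compared with themselves a day later, at 48 h against 24 h after transduction. The cells were N/TERT2G, an immortalized line of human keratinocytes grown in EpiLife medium with growth supplement. The groups described are Ad-GFP at 48 h and Ad-GFP at 24 h, which received an adenovirus encoding green fluorescent protein at a multiplicity of infection of 25 on the day after plating. Ad-TEADi at 48 h and 24 h received, at the same dose, a virus encoding a fluorescent protein fused to TEAD-binding domains that blocks the TEAD transcription factors. Ad-GFP at 12 h gave the level before the interval. Each group has 3 libraries of polyadenylated RNA, so 6 of the 18 libraries of the series enter the comparison itself. All groups are transduced cells of a single line and none is untransduced, so time since transduction, time since plating and cell density cannot be told apart.

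The members are the 12375 rows, of 15896 gene rows in the deposited table, that lie on chromosomes 1 to 22, X or MT of hg19 and had 3 or more of the 6 libraries at a value of 1 or above. Levels are TMM normalized CPM (reads scaled to library size) as deposited. Changes are log2 ratios of 48 h over 24 h ± SE from limma, taken after 1 was added to each value, so that for low genes they are smaller than the ratio of the printed levels. The words rose and fell are kept for called genes, those with an adjusted p under 0.05 over all rows and a fold change of 1.5 or more, and counts by adjusted p alone leave out the fold limit. The labels speak of triplicates, and the study states for its cell experiments that the wells were plated together, so p-values speak only of the spread among these libraries. Depth, estimated from the deposited values, was 18640000 to 21620000 reads in the 48 h libraries and 15770000 to 17910000 in the 24 h libraries. The deposited values of a library summed to 929660 to 943330 at 48 h and to 898740 to 903970 at 24 h, so an unchanged share of a library reads as slightly higher at 48 h. Of 7 keratinocyte markers all were measured, and their summed level was 29270 to 30200 CPM at 48 h and 19560 to 20320 CPM at 24 h. Of 13 fibroblast markers 5 were kept, with a summed level of 889.7 to 938 CPM at 48 h and 1061 to 1113 CPM at 24 h, none called, and 1 higher and 3 lower by adjusted p alone. Most of that sum is VIM, vimentin, which cultured epithelial cells also make, at 873 at 48 h against 1028 at 24 h (log2 change -0.24 ± 0.04; VIM-AS1 shares exon sequence on the other strand), and FAP, a membrane protease, was at 21.8 at 48 h against 31.6 at 24 h (-0.51 ± 0.06). A narrower set of 8 without those genes summed to 22.2 to 25.8 CPM at 48 h and 21.5 to 23.8 CPM at 24 h. Of 9 melanocyte markers MITF alone was kept, at 1.17 at 48 h against 2.04 at 24 h (-0.48 ± 0.15), and PMEL stayed under 1 CPM. The part of such cells in the results was not tested. Of 16 immune and endothelial markers CD68 alone was kept. CD68, a lysosomal protein best known in macrophages but made by many cells, rose to 36.1 at 48 h against 18.6 at 24 h.

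Human keratinocytes in low-calcium culture divide as basal-type cells, marked by KRT5, KRT14 and TP63. As a culture fills, cells leave the cycle, and a part of them starts the differentiation programme of the upper epidermis, with cornified envelope proteins and barrier lipids. Proliferation genes are transcribed in successive waves, since E2F factors drive the genes of DNA replication, and the MuvB complex with B-MYB and FOXM1 drives those of mitosis later in the cycle. Adenoviral vectors are also sensed by the cell, which can turn on interferon-stimulated genes.

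Between 24 and 48 h, 824 of the 12375 rows were called (6.66%), of which 525 rose (4.24%) and 299 fell (2.42%). The median change over all rows was 0.0 on the log2 scale. By adjusted p alone, 3027 rows were higher at 48 h (24.5%) and 3016 were lower (24.4%). The 3 values at 48 h did not overlap the 3 at 24 h for 7141 rows (57.7%), and for 821 of the 824 called rows. Libraries of 1 time differed by a median of 0.08 to 0.10 per row on the log2 scale and libraries of different times by 0.19 to 0.23. On the deposited TPM values 742 rows were called, with 169 higher and 573 lower. With totals made equal over the listed genes 793 were called, with 393 higher and 400 lower. The split between rises and falls thus depends on the scaling. For LGALS7B, ALOX15B, FGFR3, CDH2, CDC6 and MKI67, TPM followed the TMM value divided by the listed genomic span, times a nearly common factor at each time. TPM values are therefore treated as another scaling and not as a correction for transcript length. The pseudocount of 0.1 used with them can also shrink changes of low or long genes. The median row moved by -0.14 on TPM values, and list medians slightly above 0 can turn there. Such turns are given below for some lists only. Others that turned were the lipid barrier (-0.02 on TPM values), junction (-0.09), p53 (-0.07) and EGFR (-0.03) lists. The TGF-beta (-0.04), NRF2 (-0.12), SRF (-0.15) and lysosome (-0.09) lists turned likewise, and these are not all.

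**Figure D1:**
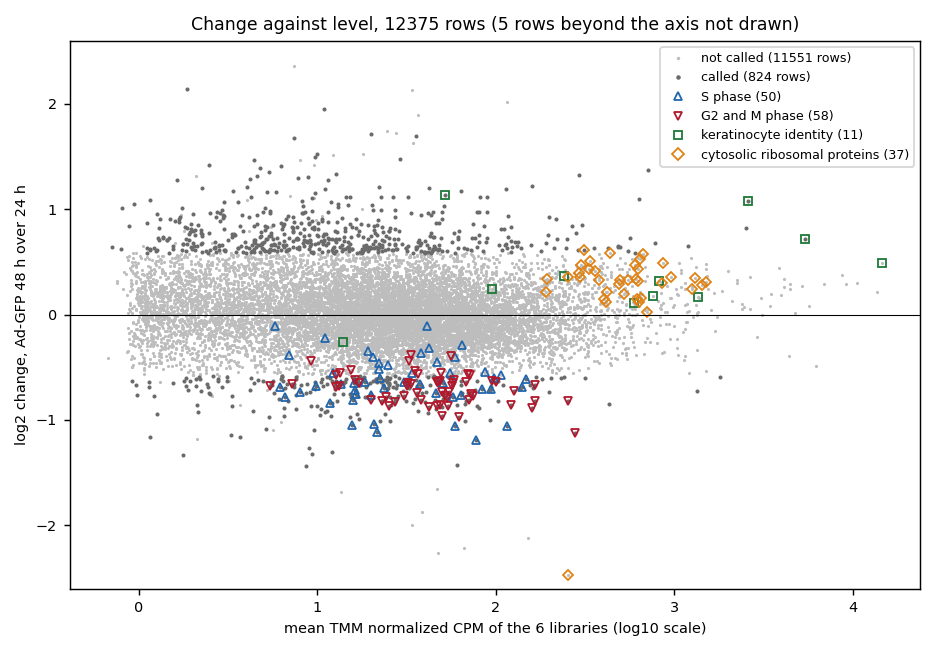
Log2 change of each row between Ad-GFP at 48 h and Ad-GFP at 24 h against its mean TMM normalized CPM over the 6 libraries (log10 scale), with 824 called rows in dark grey, 11551 others in light grey and 4 gene lists outlined; 5 rows beyond the axis are not drawn. Genes of S phase and of G2 and M phase lie below 0, keratinocyte identity genes lie mostly above 0 at the highest levels, and 1 ribosomal protein gene, RPS25, stands alone at -2.47 because 1 of its 48 h values is near 0.

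The 10 largest rises, chosen among called rows whose values did not overlap between the times, included receptors of growth factors, a galectin and a lipid enzyme. LGALS7B, a galectin of stratified epithelia, had 15.7, 18.5 and 19.4 at 48 h against 3.86, 4.32 and 3.48 at 24 h (log2 change 1.95 ± 0.11, adjusted p = 6.73e-16). Its row lies on chromosome 19, 39279851 to 39282390 (hg19, as listed), beside the near-identical copy LGALS7, and reads of the pair could be split. ALOX15B, a 15-lipoxygenase (hg19 chromosome 17, 7942335 to 7952453), had 31, 30.4 and 32.2 at 48 h against 7.47, 8.70 and 10.4 at 24 h (log2 change 1.72 ± 0.10, adjusted p = 6.38e-14). FGFR3, a fibroblast growth factor receptor (hg19 chromosome 4, 1795034 to 1810600), had 52.8, 53.1 and 59.2 at 48 h against 15.5, 15 and 18.4 at 24 h (log2 change 1.70 ± 0.13, adjusted p = 4.67e-08). The means were 17.9 at 48 h against 3.89 at 24 h for LGALS7B, 31.2 at 48 h against 8.85 at 24 h for ALOX15B and 55.1 at 48 h against 16.3 at 24 h for FGFR3. NFATC4, a calcineurin-dependent transcription factor, had 11.8, 12.8 and 10.8 at 48 h against 3.06, 2.47 and 3.54 at 24 h (log2 change 1.68 ± 0.14, adjusted p = 3.7e-12). NGFR, the p75 neurotrophin receptor, had 7.18, 7.0 and 6.58 at 48 h against 1.80, 2.11 and 1.71 at 24 h (log2 change 1.46 ± 0.15, adjusted p = 5.27e-10). Both were low at 24 h in all libraries. C6orf223 (log2 change 1.53 ± 0.15), SYT7 (1.5 ± 0.11), a calcium sensor of vesicle fusion, CDHR1 (1.48 ± 0.07), a cadherin-related protein, VASN (1.41 ± 0.12), a membrane protein that binds TGF-beta, and GRAMD2 (1.39 ± 0.13) complete the 10 rises, with adjusted p between 4.27e-17 and 3.85e-10.

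The 10 largest falls, chosen by the same rule, held 3 secreted immune factors and 3 genes of the cell cycle. CDH2, N-cadherin (hg19 chromosome 18, 25530930 to 25757411), had 4.75, 4.11 and 3.78 at 48 h against 12.7, 13.4 and 13.2 at 24 h (log2 change -1.44 ± 0.10, adjusted p = 6.01e-14). CXCL1, a neutrophil chemokine, had 36.5, 32.9 and 28.1 at 48 h against 87.1, 86.8 and 92.4 at 24 h (log2 change -1.43 ± 0.09, adjusted p = 1.48e-10). IL8, another neutrophil chemokine, had 7.68, 6.05 and 5.83 at 48 h against 15.8, 17.9 and 18.9 at 24 h (log2 change -1.31 ± 0.10, adjusted p = 1.23e-12). IL23A, the p19 subunit of interleukin-23, averaged 1.89 ± 0.387 at 48 h against 5.45 ± 0.946 at 24 h (log2 change -1.16 ± 0.14). The cell cycle genes were CDC6, MKI67 and CLSPN, described next. The remaining 3 were ZNF165 (log2 change -1.32 ± 0.11), PDE1C (-1.27 ± 0.15), a phosphodiesterase regulated by calmodulin, and CNTNAP2 (-1.09 ± 0.11), a neurexin family adhesion protein. The calls of CDH2, PDE1C and CNTNAP2 were lost on TPM values, where their means of 0.0167, 0.00791 and 0.00224 at 48 h against 0.0594, 0.0247 and 0.00600 at 24 h lie under the pseudocount of 0.1 used there, and the ratios of those means were 0.281, 0.321 and 0.374.

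**Figure D2:**
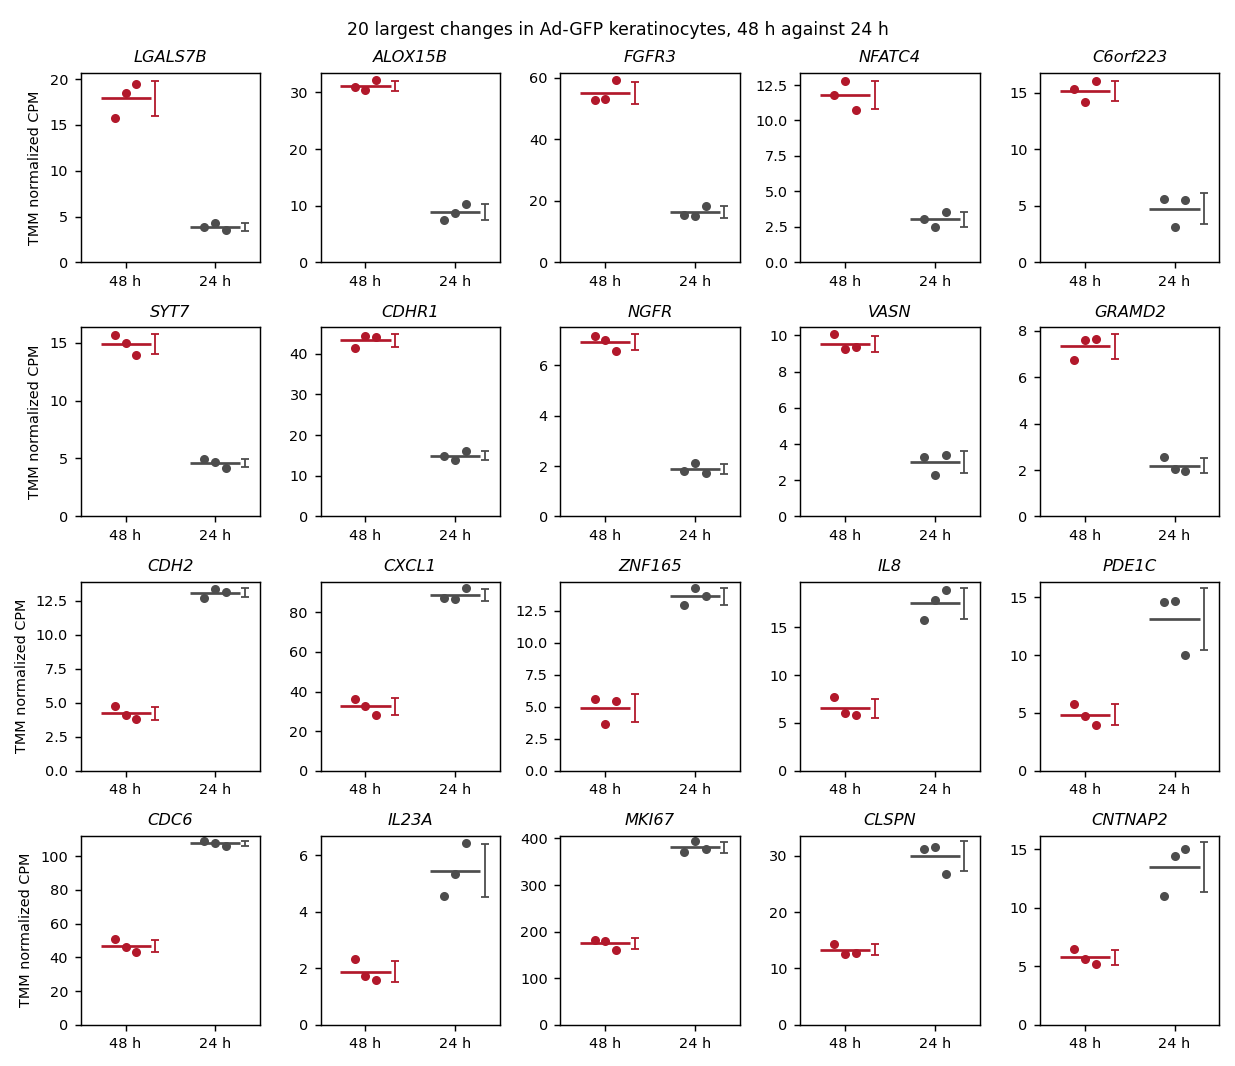
TMM normalized CPM of the 20 genes with the largest changes in Ad-GFP keratinocytes, 48 h left and 24 h right in each panel, with 3 libraries as points, the mean as a line and the SD as an error bar. The genes were chosen among called rows whose values do not overlap between the 2 times, so their separation follows from the choice. The means run from LGALS7B (17.9 at 48 h against 3.89 at 24 h) to CNTNAP2 (5.75 at 48 h against 13.5 at 24 h).

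Genes of DNA replication fell together. Of 50 measured S phase genes, 31 fell and none rose, 47 were lower by adjusted p alone, and the values of 47 did not overlap between the times. The median change was -0.65 with a range of -1.19 to -0.10, and the median was -0.74 on TPM values. CDC6, which loads the replicative helicase at origins (hg19 chromosome 17, 38443885 to 38459172), had 50.7, 46.2 and 43.4 at 48 h against 109, 108 and 106 at 24 h (log2 change -1.19 ± 0.06, adjusted p = 4.27e-17). RRM2, the regulated subunit of ribonucleotide reductase, had 77.9, 78.9 and 68.6 at 48 h against 158, 161 and 150.2 at 24 h (log2 change -1.05 ± 0.06, adjusted p = 1.74e-14). PCNA, the sliding clamp of the replicative polymerases, had 73.9, 70.7 and 70.6 at 48 h against 119.9, 119.9 and 112 at 24 h (log2 change -0.70 ± 0.05, adjusted p = 1.08e-13). In each of the 3 genes the 48 h libraries lay within a narrow band well under the 24 h band. TYMS, of thymidylate synthesis, fell by 0.78 on the log2 scale and MCM4, a helicase subunit, by 0.69. CLSPN, an adaptor of the replication checkpoint, averaged 13.3 ± 0.981 at 48 h against 29.9 ± 2.66 at 24 h (log2 change -1.11 ± 0.08). TYMS shares exon sequence with ENOSF1 on the other strand, and the sources used here do not say whether the counting used strand.

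The mitotic genes fell to a similar degree and with fewer exceptions. Of 58 measured G2 and M phase genes, 46 fell and none rose, all 58 were lower by adjusted p alone, and the values of all 58 did not overlap. The median was -0.68, with a range of -1.12 to -0.38. In bulk RNA, fewer cycling cells and less of these transcripts per cell cannot be told apart. MKI67, the antigen Ki-67 of cycling cells (hg19 chromosome 10, 129894923 to 129924650), had 182, 180.3 and 161 at 48 h against 372, 394 and 377 at 24 h (log2 change -1.12 ± 0.07, adjusted p = 9.78e-12). KIF11, the motor that separates spindle poles, had 32.4, 36.8 and 32 at 48 h against 67.3, 68.4 and 64.2 at 24 h (log2 change -0.96 ± 0.06, adjusted p = 2.44e-15). ANLN, a scaffold of the cleavage furrow, had 186, 189 and 173 at 48 h against 319.9, 325 and 325 at 24 h (log2 change -0.82 ± 0.05, adjusted p = 3.74e-15). The means of MKI67, KIF11 and ANLN lay between 33.7 and 183 CPM at 48 h, and between 66.6 and 381 CPM at 24 h, with no overlap within a gene. SMC4, of condensin, fell by 0.88 on the log2 scale, TPX2, an activator of Aurora A, by 0.82, KIF20A, a cytokinesis motor, by 0.86, and DLGAP5, a spindle protein, by 0.87. SMC4 shares exon sequence with TRIM59 and IFT80 on the other strand, and KIF20A with BRD8 and CDC23.

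Several regulators of these waves fell as well. Of 25 measured E2F family, cyclin and CDK genes, 8 fell and none rose, and 16 were lower by adjusted p alone against 1 higher. MYBL2, which encodes B-MYB, had 65.4, 59.4 and 59.2 at 48 h against 131, 117 and 124 at 24 h (log2 change -1.0 ± 0.05, adjusted p = 1.04e-16). FOXM1, the partner factor of late cell cycle genes, had 80.6, 70.0 and 72.3 at 48 h against 136, 125 and 134 at 24 h (log2 change -0.82 ± 0.06, adjusted p = 6.59e-14), and it shares exon sequence with ITFG2 on the other strand. Neither gene had overlapping values. CDC25A, a phosphatase that activates CDK2, fell by 0.94 on the log2 scale, E2F8, a repressing E2F, by 1.14, and MYBL1 by 0.93. E2F1, an activating E2F, averaged 10.9 ± 1.78 at 48 h against 17.5 ± 0.327 at 24 h (log2 change -0.64 ± 0.12, adjusted p = 5.18e-05), and its change was -0.55, under the limit, without 48 h replicate 3. E2F7 missed the fold limit at -0.53 ± 0.06 (adjusted p = 1.23e-09), and was called on TPM values (-0.69) and with equal totals (-0.59). Of 7 genes with CDK inhibitor (CDKN) symbols, which include the phosphatase gene CDKN3, none rose. CDKN3 and CDKN2C fell by 0.64 and 0.69 on the log2 scale, CDKN3 with -0.56 and no call without 48 h replicate 3, CDKN1A, which encodes p21, averaged 369 ± 1.64 at 48 h against 330.2 ± 14.6 at 24 h (log2 change 0.16 ± 0.04, adjusted p = 0.00211; -0.03 on TPM values), and CDKN2B, p15, averaged 11.1 ± 1.05 at 48 h against 9.14 ± 0.782 at 24 h.

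The promoters of these lists differ in short motifs, and the stretches of 5 genes described above, 3 of mitosis and 2 of replication, are shown to set the cell cycle element bound by MuvB (CHR) beside the E2F site. They are the 100 bases before the annotated start from RefSeq (GRCh38.p14, not the hg19 build of the expression table), 5′ to 3′ on the strand of the gene. Capitals mark matches on either strand to CHR (TTTGAA or TTCGAA), E2F (TTTGGCGC, TTTGCCGC, TTTCGCGC or TTTCCCGC) and CCAAT, and in MKI67 the CHR and CCAAT matches nearest the start overlap. The stretches lie at chr10:128126424-128126523 (minus strand) for MKI67, chr10:92593030-92593129 (plus) for KIF11, chr7:36389762-36389861 (plus) for ANLN, chr20:5126623-5126722 (minus) for PCNA and chr17:40287779-40287878 (plus) for CDC6.
MKI67: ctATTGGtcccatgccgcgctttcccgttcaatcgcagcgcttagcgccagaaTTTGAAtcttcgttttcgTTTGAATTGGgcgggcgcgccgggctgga
KIF11: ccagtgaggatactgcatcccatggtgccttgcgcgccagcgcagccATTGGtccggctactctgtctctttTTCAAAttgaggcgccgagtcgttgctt
ANLN: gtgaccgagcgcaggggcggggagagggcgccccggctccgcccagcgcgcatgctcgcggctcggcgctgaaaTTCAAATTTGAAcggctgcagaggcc
PCNA: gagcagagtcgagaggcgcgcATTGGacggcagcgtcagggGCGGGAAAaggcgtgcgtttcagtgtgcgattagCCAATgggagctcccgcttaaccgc
CDC6: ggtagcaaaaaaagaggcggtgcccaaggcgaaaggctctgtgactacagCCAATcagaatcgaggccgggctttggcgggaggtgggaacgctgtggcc
In windows from 250 bases before to 50 after the start, CHR letters occurred in 37 of 50 G2 and M phase genes with a window (74%), in 2 of 41 S phase genes (4.88%) and in 1040 of 9574 matched rows (10.9%). E2F letters occurred in 4 of 50 G2 and M phase genes (8.0%), in 20 of 41 S phase genes (48.8%) and in 5.58% of matched rows. CCAAT occurred in 76% of the G2 and M phase genes, 51.2% of the S phase genes and 36.8% of matched rows. MKI67 showed 2 CHR and 2 CCAAT matches in its stretch, KIF11 1 of each, ANLN 2 CHR matches, PCNA 1 E2F and 2 CCAAT matches, and CDC6 1 CCAAT match. The CDC6 stretch also holds tttggcgg, which differs from TTTGGCGC in its last letter and so was not counted. Only the E2F strings given above were searched, so the E2F shares leave out related forms, and a stretch without a match may still hold an E2F site. Among all rows that fell, 26.7% of windows held CHR letters and 15.8% held E2F letters, against 5.87% and 2.04% of the rows that rose. A match is a match of letters and does not show a bound factor.

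Structural genes of the basal keratinocyte were higher at 48 h. Of 11 measured keratinocyte identity genes 3 rose and none fell, 10 were higher by adjusted p alone, and the median change was 0.32. KRT17, a keratin of stressed and hair follicle keratinocytes, had 3433, 3503 and 3615 at 48 h against 1708, 1606 and 1684 at 24 h (log2 change 1.08 ± 0.04, adjusted p = 2.26e-20). KRT14, the basal type I keratin, had 6574, 6672 and 6883 at 48 h against 4149, 3926 and 4154 at 24 h (log2 change 0.72 ± 0.04, adjusted p = 1.43e-16). KRT15, a keratin of basal and bulge cells, had 63.5, 80.1 and 71.4 at 48 h against 31.2, 34.3 and 30.1 at 24 h (log2 change 1.14 ± 0.12, adjusted p = 1.8e-06). The ranges were apart in all 3 keratins, which belong to a family with near-identical stretches, and the call of KRT14 was lost on TPM values. KRT5, the partner of KRT14, averaged 16993 ± 318 at 48 h against 12125 ± 200.3 at 24 h (log2 change 0.49 ± 0.03) and was under the fold limit, as were CDH3, P-cadherin, at 0.32 ± 0.04 and TP63, the lineage factor p63, at 0.36 ± 0.04.

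Of 19 basal layer and hemidesmosome genes 3 rose and none fell, with 13 higher and 2 lower by adjusted p alone and a median of 0.29. LAMA5, a laminin chain of the basement membrane, had 361, 353 and 358 at 48 h against 211, 198 and 215 at 24 h (log2 change 0.78 ± 0.05, adjusted p = 1.24e-14). DLK2, a delta-like protein, averaged 27.8 ± 0.708 at 48 h against 13.4 ± 0.747 at 24 h (log2 change 1.0 ± 0.11). LAMA5 and DLK2 share exon sequence with ADRM1 and ABCC10 on the other strand, and the call of LAMA5 was lost on TPM values. The other riser, named after its value was seen, was DST, the plakin dystonin (0.65 ± 0.07), whose call was lost on TPM values. The hemidesmosome genes ITGA3, LAMB3 and COL17A1 were higher by 0.48, 0.44 and 0.34 on the log2 scale with separate values, under the fold limit. ITGB6, an integrin chain of wound edge keratinocytes, had a change of -0.47 ± 0.05 (adjusted p = 3.39e-09), and was called lower on TPM values (-0.60), where 1 gene of the list rose and 1 fell.

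Genes of the upper layers were mixed, with a few envelope genes higher. Of 12 cornified envelope genes 4 rose and none fell, with 9 higher by adjusted p alone and a median of 0.37. PPL, periplakin, had 108, 109.7 and 119 at 48 h against 54.1, 51.7 and 47.8 at 24 h (log2 change 1.12 ± 0.07, adjusted p = 1.07e-13). CSTA, cystatin A, had 155, 155 and 166 at 48 h against 96.5, 99.2 and 98.8 at 24 h (log2 change 0.69 ± 0.07, adjusted p = 1.03e-08). SPRR2D and SPRR1B, small proline-rich envelope precursors, averaged 118 ± 5.55 at 48 h against 59.5 ± 2.47 at 24 h and 14 ± 1.37 at 48 h against 7.14 ± 1.25 at 24 h (log2 changes 0.97 ± 0.10 and 0.89 ± 0.16). In all 4 the lowest 48 h library was above the highest 24 h library, the SPRR2 genes have near-identical copies, and the call of CSTA was lost on TPM values. TGM1, the envelope transglutaminase, was at a low level of 5.82 at 48 h against 3.83 at 24 h and under the fold limit. Of 8 spinous layer genes KRT16, of activated keratinocytes, was the only one that rose (log2 change 0.98 ± 0.13, adjusted p = 2.36e-05). KRT6A averaged 5714 ± 16.5 at 48 h against 4726 ± 89.8 at 24 h and LYPD3 29.5 ± 3.36 at 48 h against 36.2 ± 2.45 at 24 h, both under the fold limit, and the median of the list was -0.02 and was under 0 with each of the 3 other scalings. None of 12 differentiation transcription factors was called in either direction.

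Single genes stood out in the lipid, protease, Notch and junction lists. ALOX15B was the only riser of 11 lipid barrier genes, and ABCA12, the lipid transporter of lamellar granules, averaged 21.6 ± 1.46 at 48 h against 14.7 ± 0.969 at 24 h (log2 change 0.53 ± 0.11). PRSS8, the membrane protease prostasin, had 110.2, 106 and 109 at 48 h against 67.8, 63.3 and 70.0 at 24 h (log2 change 0.69 ± 0.05, adjusted p = 3.37e-13), and was 1 of 2 risers among 9 desquamation genes, with SERPINB3 (0.63 ± 0.16), a serpin of squamous epithelia near 1 CPM, named after its value was seen and not called without 48 h replicate 1 (0.56) or 24 h replicate 1 (0.54). JAG2, a Notch ligand, averaged 64.1 ± 0.415 at 48 h against 41.8 ± 1.83 at 24 h (log2 change 0.61 ± 0.07), and RFNG, a glycosyltransferase that modifies Notch, averaged 34 ± 3.18 at 48 h against 21.7 ± 0.531 at 24 h (log2 change 0.62 ± 0.07). They were the 2 risers of 17 Notch genes, both close to the fold limit. JAG2 was at 0.57 without 24 h replicate 2 and RFNG at 0.57 without 48 h replicate 2, neither called, and RFNG shares exon sequence with GPS1 on the other strand. CLDN1, the main claudin of epidermal tight junctions, had 109, 106 and 114 at 48 h against 60.8, 62.5 and 59.7 at 24 h (log2 change 0.84 ± 0.05, adjusted p = 9.2e-15), and GJB6, connexin 30, averaged 22.7 ± 0.957 at 48 h against 13.3 ± 1.95 at 24 h (log2 change 0.74 ± 0.08). CLDN7, another claudin, was the remaining riser of 21 junction genes (0.64 ± 0.11, named after its value was seen). TJP1, the cytoplasmic scaffold ZO-1, had a log2 change of -0.53 ± 0.05, opposite in sign to those of the claudins. Calls of PRSS8, JAG2, RFNG, CLDN7 and GJB6 were lost on TPM values, where TJP1 was called lower (-0.595) and 1 junction gene rose and 1 fell.

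**Figure D3:**
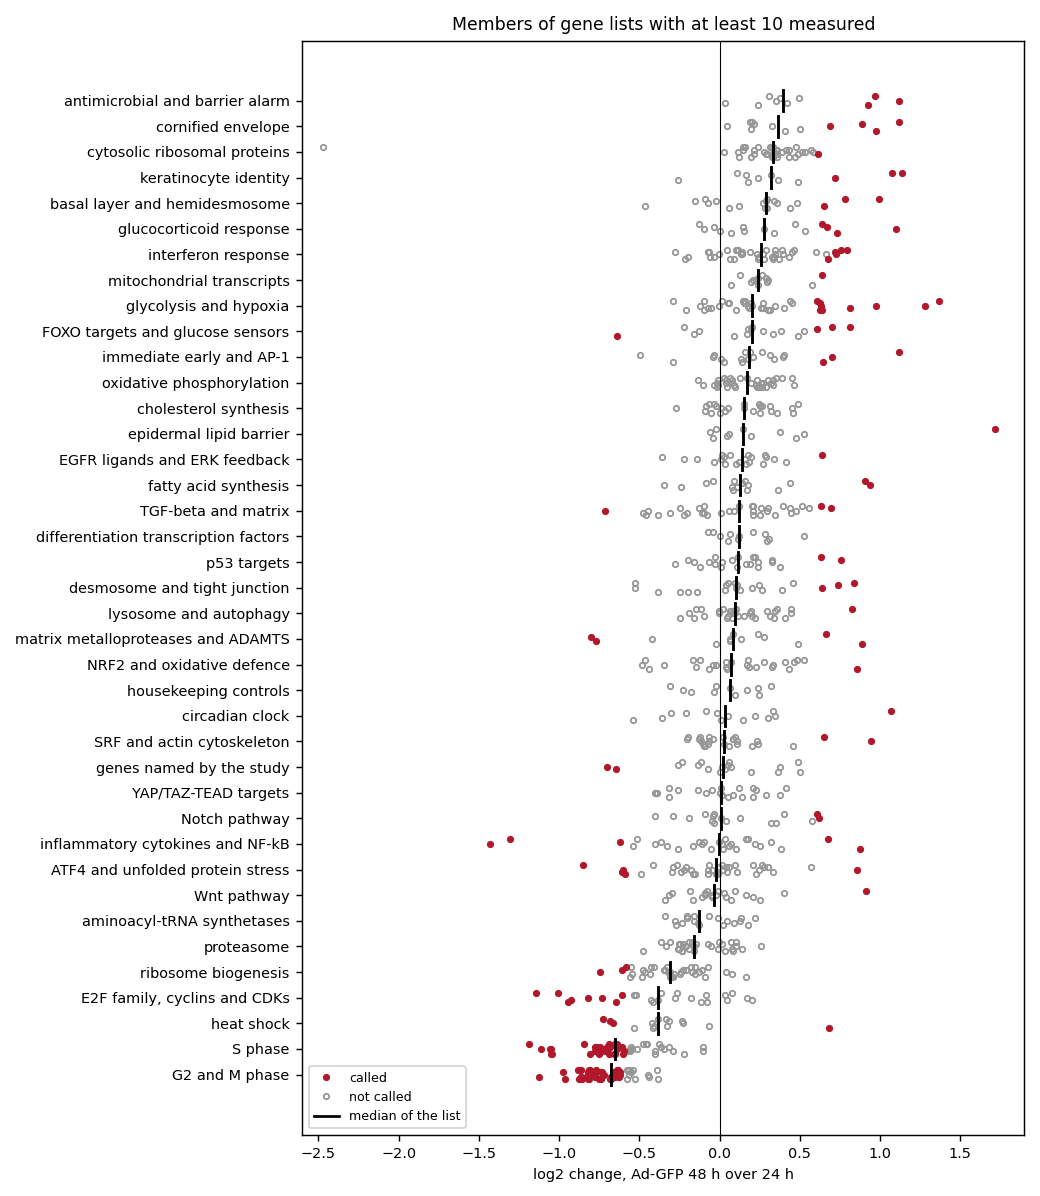
Log2 change between Ad-GFP at 48 h and Ad-GFP at 24 h of each member of the lists with at least 10 measured genes, filled where called and open where not, with the list median as a bar. The lists run from antimicrobial and barrier alarm (median 0.40) to G2 and M phase (-0.68), and the lone point at -2.47 is RPS25; on TPM values the median of all rows is lower by 0.14, and medians of lists near 0 turn.

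Interferon-stimulated genes fell between 12 and 24 h, and a few rose again by 48 h. Of 42 measured members all 42 fell between 12 and 24 h, with a median of -1.48, and between 24 and 48 h 5 rose and none fell, with a median of 0.26 (0.06 on TPM values). ISG20, an exonuclease against viral RNA, had 22.7, 19.1 and 21.8 at 12 h, 4.81, 4.89 and 5.59 at 24 h and 9.40, 9.77 and 9.47 at 48 h (48 h over 24 h: log2 change 0.79 ± 0.13, adjusted p = 6.75e-06). IFI27 had 179.6, 146 and 167 at 12 h, 70.4, 54.8 and 55 at 24 h and 102, 94.9 and 108 at 48 h (48 h over 24 h: log2 change 0.76 ± 0.20, adjusted p = 0.00691). The 48 h values of both lay between those of 24 h and 12 h without overlap. STAT2 and IRF9, the DNA-binding partners of the interferon response, averaged 184, 86 and 113 and 70.6, 43.2 and 56 CPM at 12, 24 and 48 h, and their later changes of 0.39 and 0.37 were under the fold limit. LGALS3BP averaged 542, 317 and 398 CPM over the same times. IRF1, which also answers other stimuli, averaged 46, 27.6 and 22.6. The other 3 risers were ISG15, OASL and BST2, named after their values were seen, and BST2 was not called when any of 48 h replicates 2 and 3 and 24 h replicates 2 and 3 was left out (0.71, 0.68, 0.65 and 0.74). None of the 5 calls held on TPM values. Of 34 members with a promoter window, 22 (64.7%) held ISRE letters (GAAA, any 2 bases, GAAA, on either strand), against 2.72% of matched rows.

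Inflammatory genes went in both directions on the deposited scaling. Of 29 measured cytokine and NF-kB genes 2 rose and 3 fell, with a median of 0.0. The chemokines CXCL1 and IL8 fell, as given above, with CXCL3, another ligand of the same receptor, named after its value was seen, whose change of -0.62 was -0.57 without 48 h replicate 3 and -0.56 without 24 h replicate 2, under the limit. NFKB1, which encodes the p50 subunit, had a log2 change of -0.36 ± 0.05, and TNF, the cytokine, had one of -0.54 ± 0.07, which became -0.59 and a call without 48 h replicate 1, and a call on TPM values (-0.75) and with equal totals (-0.59). IL1RN, the interleukin-1 receptor antagonist, had 8.95, 10.6 and 10.1 at 48 h against 5.36, 4.58 and 4.85 at 24 h (log2 change 0.88 ± 0.11, adjusted p = 3.72e-08). PTGES, a prostaglandin E synthase, averaged 12.1 ± 0.417 at 48 h against 7.21 ± 0.699 at 24 h (log2 change 0.67 ± 0.12). The antagonist and the synthase lost their calls on TPM values, where none of the 29 rose and 4 fell.

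Antimicrobial genes were higher, mostly from low levels. Of 10 measured 3 rose and none fell, 7 were higher by adjusted p alone, and the median was 0.40. LCN2, a siderophore-binding protein, had 6.17, 5.79 and 6.54 at 48 h against 2.66, 2.47 and 1.83 at 24 h (log2 change 1.12 ± 0.15, adjusted p = 1.01e-07). S100A8 and S100A9, the subunits of calprotectin, averaged 3.83 ± 0.575 at 48 h against 1.54 ± 0.295 at 24 h and 11.2 ± 0.898 at 48 h against 5.33 ± 1.18 at 24 h (log2 changes 0.93 ± 0.17 and 0.97 ± 0.19). No 48 h library of these 3 genes fell inside the 24 h range. At far higher levels C3, the complement component, and S100A2 had log2 changes of 0.31 ± 0.04 and 0.42 ± 0.08, under the fold limit, and SAA1 one of 0.50 ± 0.10.

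Genes that respond to low oxygen or serve glycolysis were mostly higher. Of 37 measured 9 rose and none fell, 25 were higher and 3 lower by adjusted p alone, and the median was 0.20. NDRG1, a stress-responsive gene induced by low oxygen (hg19 chromosome 8, 134249414 to 134314266), had 1139, 975 and 991 at 48 h against 402, 395 and 400.1 at 24 h (log2 change 1.37 ± 0.05, adjusted p = 9.51e-18). SLC2A1, the glucose transporter GLUT1, had 449.6, 423 and 422 at 48 h against 277, 269 and 287 at 24 h (log2 change 0.63 ± 0.04, adjusted p = 1.22e-13). SLC16A3, the lactate exporter MCT4, had 178, 163 and 167 at 48 h against 111, 105 and 109.9 at 24 h (log2 change 0.64 ± 0.06, adjusted p = 1.95e-11). The exporter and the transporter changed by about the same log2 amount and NDRG1 by more than these. ALDOC, an aldolase, averaged 34.9 ± 1.15 at 48 h against 19.5 ± 1.70 at 24 h (log2 change 0.81 ± 0.08). VEGFA, the angiogenic factor, and PFKL, a phosphofructokinase, were higher by 0.45 and 0.44 on the log2 scale, under the fold limit. The other 5 risers, named after their values were seen, were CA9, SLC2A3, ADM, MXI1 and EGLN3, of which SLC2A3 and ADM were under the limit without 48 h replicate 1 (0.58 each). The count of risers was 3 on TPM values and 4 with equal totals, and SLC2A1 and SLC16A3 lost their calls on TPM values. SLC16A3 and CA9 share exon sequence with CSNK1D and ARHGEF39 on the other strand.

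Lipid synthesis changed at 2 enzymes. ACSS2, which makes acetyl-CoA from acetate, had 277, 286 and 285 at 48 h against 156, 144 and 152 at 24 h (log2 change 0.90 ± 0.04, adjusted p = 2.75e-17). FADS3, a fatty acid desaturase family member, had 159, 150.2 and 152 at 48 h against 78.4, 78.6 and 82.5 at 24 h (log2 change 0.94 ± 0.06, adjusted p = 6.14e-14). These were the 2 risers of 16 fatty acid genes, and FASN, fatty acid synthase, had a log2 change of 0.44 ± 0.04. None of 24 cholesterol synthesis genes was called, although 13 were higher and 1 lower by adjusted p alone. MVD, of the mevalonate pathway, was at 0.45 ± 0.05. The medians of the fatty acid and cholesterol lists were 0.13 and 0.15 here, and -0.06 and -0.03 on TPM values.

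Some glucocorticoid-responsive and nutrient-sensing genes rose. Of 15 glucocorticoid genes 4 rose and none fell, 10 were higher by adjusted p alone, and the median was 0.27. GLUL, glutamine synthetase (hg19 chromosome 1, 182350839 to 182361342), had 805, 874 and 920.0 at 48 h against 398, 403 and 407 at 24 h (log2 change 1.10 ± 0.06, adjusted p = 4.37e-12). ERRFI1, a feedback inhibitor of the EGF receptor that also stands in the EGFR list, had 251, 263 and 256 at 48 h against 169.6, 164 and 161 at 24 h (log2 change 0.64 ± 0.04, adjusted p = 4.72e-14). ANGPTL4, an inhibitor of lipoprotein lipase, averaged 76.8 ± 6.35 at 48 h against 45.8 ± 3.94 at 24 h (log2 change 0.73 ± 0.08). DUSP1, a phosphatase of MAP kinases, was the remaining riser (0.67 ± 0.11, named after its value was seen, and 0.57 with no call without 24 h replicate 2). GLUL alone kept its call among the list on TPM values, where 1 of the 15 rose. BCL6, a transcriptional repressor and FOXO target, averaged 13 ± 0.560 at 48 h against 7.03 ± 1.25 at 24 h (log2 change 0.81 ± 0.11). NR1D1, the clock repressor REV-ERB alpha, had 16.8, 18.4 and 14.3 at 48 h against 7.47, 7.67 and 6.85 at 24 h (log2 change 1.07 ± 0.10, adjusted p = 6.31e-11), and it shares exon sequence with THRA on the other strand. It was the only riser of 14 clock genes, and CRY1, a clock repressor of the other arm, had a change of -0.54 ± 0.10, under the fold limit, and of -0.60, past it, without 24 h replicate 3, and -0.59 with equal totals. BCL6 lost its call on TPM values. The lysosomal genes PSAP, GRN and CTSD were higher by 0.44, 0.45 and 0.41 on the log2 scale without reaching the fold limit.

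Several protein-folding genes fell. Of 39 ATF4 and unfolded protein genes 1 rose and 4 fell, and 15 were lower against 10 higher by adjusted p alone. The 4 that fell work in the endoplasmic reticulum. HERPUD1, a component of the degradation machinery there, had 331, 294 and 300.5 at 48 h against 543, 572 and 551 at 24 h (log2 change -0.85 ± 0.06, adjusted p = 4.18e-13). DNAJC3, DNAJB9 and SEL1L fell by 0.60, 0.61 and 0.59 on the log2 scale, close to the limit. DNAJC3 was at -0.55 without 24 h replicate 2, and SEL1L was at -0.57, -0.56, -0.55 and -0.58 without 48 h replicates 2 and 3 and 24 h replicates 2 and 3, all under the limit. Without 24 h replicate 2 the count of fallers was 2. CBS, of cysteine synthesis, averaged 127 ± 3.01 at 48 h against 85.3 ± 1.10 at 24 h (log2 change 0.57 ± 0.05), and 0.59 with a call without 48 h replicate 3, and the riser was NUPR1, named after its value was seen. Of 15 cytosolic heat shock genes 3 fell and 1 rose, and 13 were lower by adjusted p alone with a median of -0.38. HSP90AA1, the inducible HSP90, had 1034, 1025 and 973 at 48 h against 1631, 1747 and 1648 at 24 h (log2 change -0.73 ± 0.04, adjusted p = 4.85e-15), and it shares exon sequence with WDR20 on the other strand. HSPH1 and CHORDC1, cochaperones of HSP70 and HSP90, fell by 0.67 and 0.68 on the log2 scale, and HSPA8, the constitutive HSP70, was at -0.54 ± 0.04. The riser was HSPB1, the small heat shock protein HSP27, named after its value was seen. On TPM values 7 of the 15 fell and none rose, with a median of -0.53, HSPB1 lost its call (0.50) and HSPA8 was called at -0.73, as it was with equal totals at -0.59. None of 31 proteasome genes was called, and 18 were lower and 1 higher by adjusted p alone, with PSMD2 at -0.36 ± 0.04.

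Ribosome assembly and ribosomal protein genes had changes of opposite sign. Of 37 ribosome biogenesis genes 3 fell and none rose, while 30 were lower and 1 higher by adjusted p alone, with a median of -0.31. UTP20, of the small subunit processome, had 50.7, 53 and 51.5 at 48 h against 89.8, 92.9 and 79.5 at 24 h (log2 change -0.74 ± 0.06, adjusted p = 3.14e-11). NCL and NPM1, the abundant nucleolar proteins, averaged 984 ± 6.52 at 48 h against 1442 ± 69.4 at 24 h and 964 ± 10.4 at 48 h against 1304 ± 51.3 at 24 h (log2 changes -0.55 ± 0.04 and -0.43 ± 0.04). Every 24 h library of UTP20, NCL and NPM1 lay above every 48 h library. LYAR, a nucleolar protein, fell at the very limit (log2 change -0.58 ± 0.06, adjusted p = 1.48e-09), and lost the call without any of 48 h replicates 1 and 3 and 24 h replicates 1 and 2 (-0.58, -0.55, -0.56 and -0.56). UTP15, another processome gene, was the other one to fall (-0.61 ± 0.08, named after its value was seen), and it was under the limit without 48 h replicate 2 (-0.56) or 24 h replicate 2 (-0.58). UTP15 shares exon sequence with ANKRA2 on the other strand. NOP58 and DDX21 were at -0.56 ± 0.05 and -0.47 ± 0.04. On TPM values 12 of the 37 fell, NCL, NPM1, NOP58 and DDX21 among them. Of 37 cytosolic ribosomal protein genes 35 were higher and none lower by adjusted p alone, 1 rose, and the median was 0.33 (0.14 on TPM values). RPL37 averaged 526 ± 29 at 48 h against 349.9 ± 0.463 at 24 h (log2 change 0.58 ± 0.05, and past the limit at 0.61, 0.61 and 0.59 without 48 h replicate 1, 48 h replicate 2 and 24 h replicate 2) and RPL30 384 ± 7.37 at 48 h against 284 ± 16.5 at 24 h (0.43 ± 0.05). The gene that rose was RPL27 (0.61 ± 0.10, named after its value was seen), which lost the call without 48 h replicate 3 (0.58) or 24 h replicate 1 (0.55), on TPM values and with equal totals. These genes have many processed copies, and RPS25, pointed out after its values were seen, had 336, 0.0432 and 356 at 48 h against 283, 286 and 261 at 24 h, a value near 0 in 1 library that leaves its change of -2.47 without a call.

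Respiratory genes were slightly higher. None of 35 nuclear genes of oxidative phosphorylation was called, and 18 were higher and 1 lower by adjusted p alone, with a median of 0.17 here and -0.02 on TPM values. COX7C, a cytochrome oxidase subunit, averaged 69.4 ± 4.21 at 48 h against 50.5 ± 2.99 at 24 h (log2 change 0.45 ± 0.07). Of 13 transcripts of the mitochondrial genome 1 rose, MT-ND4L (587 ± 34.7 at 48 h against 376 ± 11.2 at 24 h; log2 change 0.64 ± 0.09), and 5 were higher by adjusted p alone. Its call was lost on TPM values. Of 11 housekeeping controls none was called, with a median of 0.06 here and -0.11 on TPM values. Of 7 measured replication-dependent histone genes 2 rose, HIST2H2BE (0.66 ± 0.12) and HIST2H4A (0.91 ± 0.27). The list summed to only 38.3 to 40.8 CPM at 48 h and 29.3 to 33.3 CPM at 24 h. The libraries hold polyadenylated RNA, so histone transcripts without a poly(A) tail are not described by these values. HIST2H2BE lost its call on TPM values, and without 48 h replicate 2 (0.58) or 24 h replicate 3 (0.56), and HIST2H4A has a near-identical copy.

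Immediate early, contractile and matrix genes gave single calls in both directions. EGR1, an early growth response factor, had 39.9, 46.3 and 46.6 at 48 h against 20.9, 18.6 and 19.9 at 24 h (log2 change 1.12 ± 0.10, adjusted p = 2.35e-10). JUND averaged 44.1 ± 2.67 at 48 h against 27.9 ± 3.38 at 24 h (log2 change 0.64 ± 0.08, and 0.58 with no call without 24 h replicate 2), and DUSP5, a phosphatase of ERK, 118 ± 1.98 at 48 h against 93.2 ± 1.09 at 24 h (0.34 ± 0.05), under the limit. FOS was the remaining riser of 20 immediate early and AP-1 genes (0.70 ± 0.12, named after its value was seen). TAGLN and MYL9, actin-binding and myosin light chain genes of the SRF programme, had 51.4, 61.6 and 59.2 at 48 h against 29.5, 27.3 and 31.3 at 24 h (log2 change 0.94 ± 0.11, adjusted p = 2.95e-06) and 38, 37.7 and 43.2 at 48 h against 25.5, 23.6 and 25.5 at 24 h (log2 change 0.65 ± 0.06, adjusted p = 1.88e-10). They were the 2 risers of 26 SRF and actin genes, of which 8 were higher and 6 lower by adjusted p alone, and TAGLN shares exon sequence with PCSK7 on the other strand. PMEPA1, a feedback gene of TGF-beta signalling, had 62.5, 55.4 and 55.3 at 48 h against 103, 88 and 94.2 at 24 h (log2 change -0.71 ± 0.06, adjusted p = 1.21e-11), and its values did not overlap. MMP9, gelatinase B, averaged 36.7 ± 2.86 at 48 h against 64.5 ± 2.13 at 24 h (log2 change -0.80 ± 0.11, adjusted p = 3.25e-05), and MMP17 averaged 17.1 ± 0.974 at 48 h against 10.4 ± 1.08 at 24 h (log2 change 0.66 ± 0.10). GDF15, a stress cytokine and p53 target, averaged 11.5 ± 1.30 at 48 h against 6.45 ± 1.35 at 24 h (log2 change 0.76 ± 0.13) and was 1 of 2 risers among 23 p53 targets. Calls of FOS, JUND, MYL9, MMP17 and GDF15 were lost on TPM values.

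Targets of YAP, TAZ and TEAD did not move as a list in the control cells. None of 22 was called, 7 were higher and 7 lower by adjusted p alone, and the median was 0.01 (-0.15 on TPM values and -0.03 with equal totals). CYR61, a matricellular target, averaged 499 ± 16.2 at 48 h against 385 ± 19.7 at 24 h (log2 change 0.37 ± 0.08, adjusted p = 0.00161). CTGF, a second such target, averaged 62.1 ± 5.37 at 48 h against 61.5 ± 4.77 at 24 h (0.01 ± 0.15, adjusted p = 0.951). AXL, a receptor kinase, averaged 241 ± 3.59 at 48 h against 265 ± 5.68 at 24 h (-0.13 ± 0.05), and FST, follistatin, 328 ± 8.28 at 48 h against 392 ± 2.74 at 24 h (-0.26 ± 0.04). ARHGEF17 (0.41 ± 0.06), AJUBA (0.29 ± 0.05), WWC1 (-0.40 ± 0.06) and ASAP1 (-0.31 ± 0.05) had the smallest adjusted p among the rest. TEAD1 was at -0.23 ± 0.05, and the coactivators YAP1 and WWTR1, which encodes TAZ, were at 0.07 ± 0.05 and -0.12 ± 0.06. Of 18 measured genes that the study names PCNA and E2F1 fell and none rose. Among the others KLF4, a differentiation factor, was at 0.01 ± 0.06, IVL, involucrin, at 0.20 ± 0.13, KRT10 at 0.06 ± 0.11, DSC2 at 0.05 ± 0.06, CD44 at -0.07 ± 0.04 and CCND1 at 0.03 ± 0.05, each within 0.20 of 0. The signs of CTGF, KLF4, DSC2 and CCND1 turned with single libraries left out or with other scalings.

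The change over these hours was then compared with that of the Ad-TEADi cells, by testing the difference of the 2 changes (Ad-TEADi minus Ad-GFP) in the same fit. The Ad-GFP change enters this difference with the opposite sign. For genes named for a large Ad-GFP change, that choice alone pushes the difference against the change. The difference was called for 653 rows (5.28%), of which 255 were more positive in Ad-TEADi (2.06%) and 398 more negative (3.22%). On TPM values it was called for 360, 195 more positive and 165 more negative. The fall of the cell cycle genes was steeper with the inhibitor. It was called more negative for 27 of 50 S phase genes and 44 of 58 G2 and M phase genes, with none more positive, and the median changes were -1.23 and -1.42 in Ad-TEADi against -0.65 and -0.68 in Ad-GFP. MKI67 in Ad-TEADi had 77.9, 79.9 and 76.1 at 48 h against 340.5, 311 and 297 at 24 h (difference -0.88 ± 0.09, adjusted p = 3.47e-07). CDC6 in Ad-TEADi had 14.6, 13.7 and 15 at 48 h against 77.6, 65.4 and 64.5 at 24 h (difference -1.0 ± 0.08, adjusted p = 9.62e-11). At 24 h the Ad-TEADi libraries of both genes already lay under those of Ad-GFP. CLSPN and CDH2 also fell further, with differences of -0.67 and -0.61.

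For several genes the late rise in Ad-GFP was smaller or missing in Ad-TEADi. NGFR in Ad-TEADi had 1.55, 2.21 and 1.5 at 48 h against 1.54, 1.13 and 1.49 at 24 h (difference -1.26 ± 0.21, adjusted p = 2.05e-05). LCN2 averaged 2.36 at 48 h against 1.97 at 24 h in Ad-TEADi (difference -0.92 ± 0.21, adjusted p = 0.00106). TAGLN averaged 15.3 at 48 h against 20.7 at 24 h in Ad-TEADi (difference -1.36 ± 0.16, adjusted p = 8.64e-06), and EGR1 averaged 26.1 at 48 h against 22.3 at 24 h (difference -0.91 ± 0.14, adjusted p = 1.85e-05). The Ad-TEADi values of NGFR, LCN2, TAGLN and EGR1 at 48 h lay below each Ad-GFP value at 48 h. C6orf223, DLK2, GRAMD2, GDF15 and SPRR2D had differences of -1.24, -0.68, -0.63, -0.88 and -0.62. Of 39 ATF4 and unfolded protein genes 16 had a more negative change in Ad-TEADi and none a more positive one, among them HERPUD1 at 130.5 at 48 h against 381 at 24 h (difference -0.69 ± 0.08, adjusted p = 1.08e-07).

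Other rises were larger in Ad-TEADi. LGALS7B averaged 78.8 at 48 h against 8.25 at 24 h in Ad-TEADi (difference 1.17 ± 0.15, adjusted p = 5.47e-07), ALOX15B 141 at 48 h against 21.3 at 24 h (difference 0.96 ± 0.15, adjusted p = 1.1e-05) and SYT7 47.9 at 48 h against 9.26 at 24 h (difference 0.77 ± 0.15, adjusted p = 0.000259). S100A8, S100A9, SPRR1B and TGM1, at low levels in Ad-GFP throughout, had differences of 3.12, 2.38, 2.42 and 2.13. MMP9 fell in Ad-GFP and averaged 429.9 at 48 h against 167 at 24 h in Ad-TEADi (difference 2.16 ± 0.15, adjusted p = 2.14e-07). For the keratins the difference was called for KRT15 (0.96) and KRT16 (1.52), while for KRT14 (0.21) and KRT17 (0.20) it was under the fold limit. FGFR3, NFATC4, NDRG1 and PPL had differences of 0.12, -0.08, 0.13 and -0.14, with adjusted p from 0.221 to 0.819, so their changes were not distinguished between the viruses here. Of 42 interferon genes none gave a called difference.

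**Figure D4:**
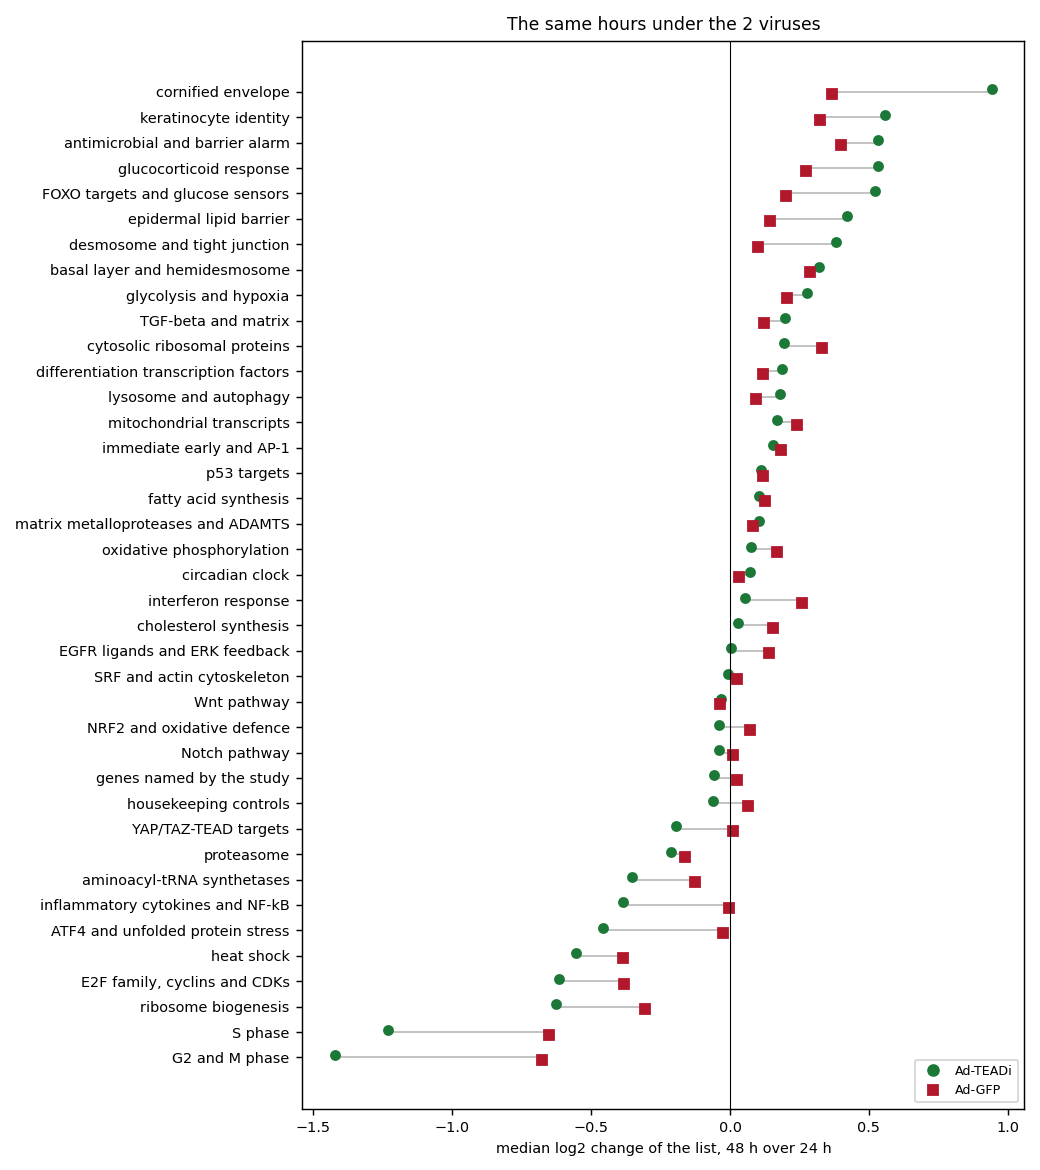
Median log2 change of each list with at least 10 measured genes between 48 h and 24 h, in Ad-TEADi (circles) and in Ad-GFP (squares). The widest gap is that of G2 and M phase, at -1.42 in Ad-TEADi and -0.68 in Ad-GFP, while the cornified envelope list is at 0.94 in Ad-TEADi and 0.37 in Ad-GFP.

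The interval was also set beside the preceding one, from 12 to 24 h in Ad-GFP cells. Both use the 24 h libraries, so a high or low 24 h value pushes the 2 changes apart, and the values are given side by side. The later interval lasts 24 h and the earlier one 12 h, and the changes were not divided by hours. A steady rate of change would thus also give a difference, and the difference does not compare rates. Between 12 and 24 h 508 rows were called (4.11%), 230 higher (1.86%) and 278 lower (2.25%), a split that was 176 to 342 with median-of-ratios scaling and 163 to 362 with equal totals. The later change minus the earlier one was called for 1502 rows (12.1%), 871 more positive (7.04%) and 631 more negative (5.10%), against 429 and 963 on TPM values and 1018 and 471 with median-of-ratios scaling. For G2 and M phase genes the median change was 0.26 in the earlier interval, with 4 that rose (named after their values were seen: CENPA, KIF14, CKS2 and PSRC1, by 0.64, 0.61, 0.63 and 0.67) and none that fell, and the difference was called more negative for 56 of 58. For S phase genes it was -0.24, with 1 that fell (CCNE2, -0.75, likewise), and the difference was called more negative for 10 of 50. CCNE2 shares exon sequence with INTS8 on the other strand, and CENPA with SLC35F6 on the same strand. For interferon genes the difference was called more positive for 41 of 42. MKI67 had 294, 338 and 361 at 12 h, 372, 394 and 377 at 24 h and 182, 180.3 and 161 at 48 h (difference -1.33 ± 0.11, adjusted p = 1.66e-08), and MCM4 averaged 231, 173 and 107 at these times (difference -0.28 ± 0.08, adjusted p = 0.00933). MCM4 went down in both intervals, and with the later one longer its difference does not show a faster drop per hour.

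**Figure D5:**
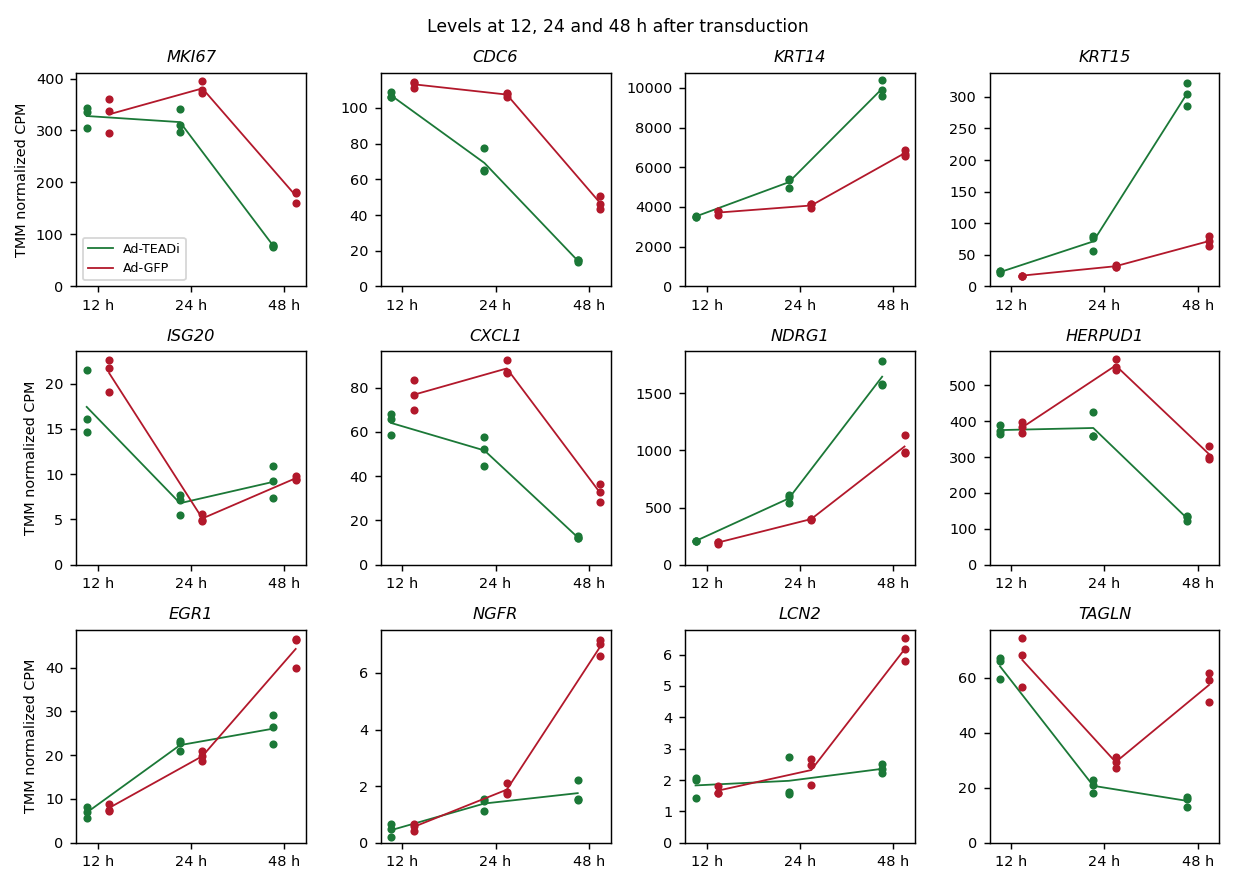
TMM normalized CPM of 12 genes at 12, 24 and 48 h after transduction in Ad-TEADi (green) and Ad-GFP (red), with 3 libraries as points and the means joined. In Ad-GFP, MKI67 and HERPUD1 are lowest at 48 h (175 and 308), NDRG1 and EGR1 are highest there (1035 and 44.3), and ISG20 and TAGLN are lowest at 24 h (5.10 and 29.3).

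Some genes kept 1 direction across both intervals. NDRG1 averaged 193, 399 and 1035 CPM at 12, 24 and 48 h, PPL 21, 51.2 and 112, EGR1 7.95, 19.8 and 44.3 and FGFR3 7.30, 16.3 and 55.1, each called in both intervals. CDH2 averaged 24.6, 13.1 and 4.21 and PMEPA1 162, 95.2 and 57.7, and these fell in both. Others turned at 24 h. MYL9 averaged 47.9, 24.9 and 39.6 and TAGLN 66.5, 29.3 and 57.4, each falling and then rising, and IL8 averaged 8.05, 17.5 and 6.52, rising and then falling. HERPUD1 averaged 383, 556 and 308 (difference -1.38 ± 0.10, adjusted p = 1.49e-11). LGALS7B, CDHR1, VASN and KRT17 rose in the later interval after earlier changes of -0.28, 0.08, -0.08 and -0.22. The cytosolic ribosomal protein list had median changes of 0.53 in the earlier interval and 0.33 in the later one, with none called in their difference.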

How the data were processed

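RNA-seq of N/TERT2G keratinocytes was used, with 18 libraries in 6 groups of 3. Per the labels, cells were transduced in triplicate, RNA was extracted with RNeasy and libraries were made with TruSeq mRNA chemistry. Reads were trimmed with Trimmomatic, aligned to hg19 with STAR and normalized in Partek by the authors. Trimmomatic 0.36, STAR 2.5.1 and Partek 8.0.19.0819 are the versions in the submitters' processing notes, while the study's own reporting gives another STAR version and adds Cutadapt. For the annotation and the strand setting, nothing was given in the sources used here. TMM normalized CPM as deposited served as the main values, and TPM as deposited, whose columns sum to 98910 to 99720, as an alternative. The table also holds the authors' own comparisons of the viruses, which were not used. Each TMM value appears to carry 1 added read, since many genes share the smallest value of a library. Dividing low values by the smallest value of the library gave a whole number within 0.01 for 75.3 to 78.1%, so reads were estimated but no count test was run.

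Rows on chromosomes 1 to 22, X and MT were kept where 3 or more of the 6 libraries had 1 or above. log2(CPM + 1) was fitted in limma 3.58.1 (R 4.3.3) with 6 group means over 18 libraries, a variance trend and robust moderation, and p-values were adjusted by Benjamini-Hochberg over 12375 rows. The difference of changes between viruses and between intervals came from the same fit, which was tested on simulated data. The labels do not say whether samples with the same number belong together. Those samples deviated weakly together, with correlations of 0.162, 0.127 and 0.128, against -0.103 to -0.027 for different numbers. A fit with the number as a block was therefore run as an alternative, and the main fit has no such block. On TPM values a pseudocount of 0.1 was added. Other alternatives were pseudocounts of 0.1 and 5, other filters, median-of-ratios scaling, equal totals, fewer libraries in the fit, other thresholds and leaving out each library.

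Named were the 10 largest rises and falls among calls without overlap, with a mean of at least 5 in the higher group and no doubt about copies, and for each list up to 6 members of smallest adjusted p, with genes the study names. Genes outside this rule are said to have been named after their values were seen, and some items are not reported here. Copies of 49 rows were in doubt (over 16-fold within a group at 100 or more reads, or a coefficient of variation over 0.2 of the TMM to TPM ratio). The members and lists were chosen with earlier results of these data known. Promoters were matched to RefSeq windows (GRCh38.p14) for 9574 of 12375 rows, 8833 by symbol and 741 by an older symbol.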

Additional observations from a re-analysis of the deposited data

Results flagged for a closer look

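Of the 20 genes with the largest changes in Ad-GFP keratinocytes between 48 and 24 h, 10 changed by a different amount in Ad-TEADi keratinocytes over the same hours, by the test of the difference itself in the limma fit with adjustment over all 12375 rows. Over all rows the difference was called for 5.28%. The 20 genes were chosen by their Ad-GFP change, which also enters the tested difference with the opposite sign. Such a choice pushes the difference against the change, so the count cannot be compared with that share. The difference was more positive in Ad-TEADi for LGALS7B (1.17), ALOX15B (0.96) and SYT7 (0.77), all of which rose in Ad-GFP. It was more negative for C6orf223 (-1.24), NGFR (-1.26) and GRAMD2 (-0.63), which also rose in Ad-GFP, and for CDH2 (-0.61), CDC6 (-1.0), MKI67 (-0.88) and CLSPN (-0.67), which fell in Ad-GFP. The virus differs between the groups throughout, and no cause of these differences was tested.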

How the results depend on the processing

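The 824 calls between 48 and 24 h were 351 with a pseudocount of 5, 488 with a mean of at least 10, 6043 by adjusted p alone and 79 with limits of 0.01 and 2-fold. They were 742 to 1160 under the other settings that kept the call rule and all libraries, 783 to 886 with 1 library left out and 824 with the replicate block. TPM values shared 401 of the calls, median-of-ratios scaling 804 and equal totals 692, the last chosen after the data were seen. The 653 differences between the viruses were 300 with a pseudocount of 5, 360 on TPM values, 658 with the replicate block and 523 to 718 with 1 library left out. The 508 calls between 24 and 12 h were 266 with a pseudocount of 5, 508 with the block and 504 to 593 with 1 library left out, and the 1502 differences between the intervals were 763, 1509 and 1259 to 1548. The 31 S phase genes called lower were 20 with a pseudocount of 5, and with 1 library left out they were 28 to 33 and those of G2 and M phase 44 to 50. The block changed the call of none of the 188 named genes. Of these, 160 kept their direction and their side of the threshold with any 1 library left out, 124 on TPM values, 147 with a pseudocount of 5, 184 with one of 0.1, 185 with median-of-ratios scaling and 166 with equal totals. The direction turned on TPM values for CDKN1A (-0.0323), CCND1 (-0.158), CTGF (-0.178), DSC2 (-0.128), KLF4 (-0.184), KRT10 (-0.121) and YAP1 (-0.114), and with equal totals for CCND1 (-0.0217), CTGF (-0.0403), DSC2 (-0.0038) and KLF4 (-0.0484), all uncalled. With 1 library left out the changes of CCND1 ranged from -0.0018 to 0.0616, of CTGF from -0.0541 to 0.0759, of DSC2 from -0.0169 to 0.0932, of KLF4 from -0.0647 to 0.0481 and of RPS25 from -3.89 to 0.321, the last without 48 h replicate 2, where its value is near 0. On TPM values the medians of lists of abundant genes moved down together. They went from 0.33 to 0.14 for cytosolic ribosomal proteins, from 0.17 to -0.02 for oxidative phosphorylation and from -0.16 to -0.34 for the proteasome. A call lost or gained there can thus follow from the scale and the pseudocount alone. Apart from RPS25 and from the settings that test fewer genes, the cause of the shifts of single genes was not tested. Changes of genes near 1 CPM are limited by depth and by the pseudocount, the split of rises and falls by the scaling, and the p-values by wells that were plated together.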

Other observations

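Some gene lists that the report touches only in part held further calls in Ad-GFP keratinocytes at 48 h against 24 h, and the genes named here were chosen after their values were seen. Over all rows 4.24% rose and 2.42% fell. The single calls of the lysosome, NRF2 and Wnt lists and the few of the TGF-beta list lie near these shares. They describe single genes and not the lists. Of 17 FOXO targets and glucose sensors 3 rose and 1 fell, and 10 were higher and 2 lower by adjusted p alone. Beside BCL6 the risers were SESN3, a stress-induced sestrin, at 13.6 ± 0.452 at 48 h against 8.03 ± 1.14 at 24 h (log2 change 0.70 ± 0.11), and PIK3IP1, an inhibitor of phosphoinositide 3-kinase, at 8.27 ± 0.514 at 48 h against 5.11 ± 0.713 at 24 h (log2 change 0.61 ± 0.10). PIK3IP1 was not called without 48 h replicate 1 (0.57), 24 h replicate 1 (0.55) or 24 h replicate 2 (0.56). KIAA0226L had 0.556, 0.605 and 0.845 at 48 h against 1.35, 1.80 and 1.65 at 24 h and fell (log2 change -0.64 ± 0.16). Of 34 lysosome and autophagy genes TFEB, a transcription factor of lysosomal genes, was the only one called, at 6.93 ± 0.868 at 48 h against 3.46 ± 0.343 at 24 h (log2 change 0.83 ± 0.19), although 13 were higher and 3 lower by adjusted p alone. Of 27 NRF2 and oxidative defence genes AKR1C2, an aldo-keto reductase with near-identical family members, was the only one called, at 8.64 ± 0.648 at 48 h against 4.35 ± 0.688 at 24 h (log2 change 0.86 ± 0.15). Calls of SESN3, PIK3IP1, KIAA0226L, TFEB and AKR1C2 were lost on TPM values. The pseudocount of 0.1 used there can shrink changes of low genes such as KIAA0226L (-0.14), so these losses need not mean weaker changes.

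Among 22 Wnt pathway genes WNT10A, a ligand of epidermis and its appendages, was the only one called, and it had 1.72, 1.82 and 2.54 at 48 h against 0.451, 0.515 and 0.856 at 24 h (log2 change 0.91 ± 0.15). All 3 libraries at 48 h lay above those at 24 h, at low levels throughout. TIMP2, an inhibitor of metalloproteases, averaged 11.1 ± 0.377 at 48 h against 6.53 ± 0.888 at 24 h (log2 change 0.69 ± 0.10) and was 1 of 2 risers among 35 TGF-beta and matrix genes. Of 13 metalloprotease and ADAMTS genes ADAMTSL4 rose at 2.36 ± 0.501 at 48 h against 0.826 ± 0.335 at 24 h (log2 change 0.89 ± 0.15) and ADAMTS15 fell at 0.642 ± 0.276 at 48 h against 1.79 ± 0.331 at 24 h (log2 change -0.77 ± 0.14), beside MMP17 and MMP9. Calls of WNT10A, TIMP2 and ADAMTS15 were lost on TPM values. None of 19 aminoacyl-tRNA synthetases was called, with 4 higher and 10 lower by adjusted p alone and a median of -0.13. None of 6 metallothionein and zinc genes was called, and their median was -0.09.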
